A study of Mus musculus with 12 samples.

Results

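Carboxylesterases are serine hydrolases that split ester and amide bonds in drugs, environmental chemicals and lipids. Mouse liver makes them in large amounts. Most stay in the lumen of the endoplasmic reticulum, where some release fatty acids from stored triacylglycerol for lipoprotein assembly, and others are secreted into plasma. Mice have many more of these genes than humans have, in classes named Ces1 to Ces5. Described here are 10 liver carboxylesterase genes, namely Ces1c, Ces1d, Ces1e, Ces1f, Ces1g, Ces2a, Ces2c, Ces2e, Ces3a and Ces3b. They were taken by gene symbol from a list made with earlier results of these data known. A probe set is a group of array oligonucleotides read as 1 value, and every probe set was taken whose gene symbol was a listed gene. Of the 10 listed genes, 9 had a probe set, out of 19324 genes on the array, and these 9 genes were covered by 10 probe sets. Ces2c had no probe set by this rule, so its signal was not analysed here. Ces1d had 3 probe sets, and Ces3a and Ces3b were read together by 1 probe set and cannot be told apart. Each gene was read by its brightest probe set, which gave 8 readings (7 single genes and the shared Ces3a/Ces3b reading).

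Liver mRNA came from male C57BL/6 mice, adult when exposure began, and was hybridised to Affymetrix whole-genome mouse arrays, with 4 arrays in each of 3 groups. SHS4m+1m recovery mice had whole-body exposure to secondhand smoke (SHS) for 4 months, then 1 month in clean air (replicates 70 to 73). SHS4m mice had the same 4 months of smoke and no recovery (replicates 66 to 69). Control mice were sham-treated in filtered air (replicates 1 to 4), and the labels do not say which of these had the extra month that the recovery group had, so age can differ between an exposed group and the Control arrays. All groups ate the same standard diet. The sources used here do not say that each array held RNA of a separate mouse, so p-values measure the spread between these arrays. The unit is the deposited signal intensity, which is comparable between arrays for 1 probe set and not between probe sets. Differences are on the log2 scale, first-named group minus second. A probe set was called where limma's two-sided p, Benjamini-Hochberg adjusted over all 45037 probe sets, was under 0.05.

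Median signals of the arrays were close, with values of 67.2 to 73.9 in the recovery group, 65.1 to 74.2 in SHS4m and 72.4 to 78.1 in Control. The top of the scale was less even. The highest signal on an array was 60512 to 92291 in recovery, 60775 to 66109 in SHS4m and 74490 to 84774 in Control. The ratio of 3' to 5' actin signal, which rises as RNA degrades, was 8.82 on recovery replicate 72, against 3.24 to 4.64 on the other arrays. That array was the highest of its group in 6 of 8 carboxylesterase readings. Hepatocyte markers were abundant, as the labelled tissue would have them: albumin (Alb) read 39557 to 70261 on the 12 arrays. Read by its brightest probe set, none of the 10 hepatocyte markers with a probe set was called in any comparison by limma. A dimmer set of 1 of them, Hnf4a, was called in SHS4m against Control (0.72, adjusted p = 0.00899). At an unadjusted p under 0.05, 3 of the 10 markers, by their brightest sets, passed in SHS4m against Control (22.5% of all genes did), 1 in recovery against Control (16.1% of all genes) and 1 in recovery against SHS4m (18.2% of all genes). Between SHS4m and Control, 6 of the 10 markers did not overlap, beside 16.1% of all genes. In recovery 0 of 10 were apart from Control (10.1% of all genes) and 1 from SHS4m (11.9%). The median difference of these markers in SHS4m against Control was -0.15, against -0.01 over all genes. Their summed signal was 364561 to 564934 in the recovery group, 414131 to 461150 in SHS4m and 442247 to 504898 in Control. In these bulk samples, fewer cells of a type and less RNA per cell cannot be told apart.

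All 10 listed genes lie on mouse chromosome 8 in RefSeq's GRCm38.p6 table. Ces1c, Ces1d, Ces1e, Ces1f and Ces1g follow each other with 0 other protein-coding genes between neighbours. Ces2a lies 70 protein-coding genes further on (68 of them outside the family), and is followed by Ces2c, Ces2e, Ces3a and Ces3b with only carboxylesterase genes in between. RefSeq promoter windows, 250 bases before to 50 bases after the start, were found for 7 of the 10 genes (Ces1d, Ces1f and Ces3a did not match). In global alignments of the 300-base windows, 201 bases were identical between Ces2a and Ces2c, 184 between Ces2a and Ces2e, 180 between Ces2c and Ces2e and 175 between Ces1c and Ces1g, and every other pair shared 150 to 167. The 250 bases before the start are printed for the Ces1 genes in the table and for Ces2a, because they hold the motif matches described next. Capitals mark TTATGTAA, the core of the D-box bound by clock-output factors such as DBP, in the Ces1 genes, and AGGTCA, the half-site of nuclear receptors, in Ces2a. The sequences read 5′ to 3′ on the gene's own strand, the minus strand at chr8:93131284-93131533 (Ces1c), chr8:93229620-93229869 (Ces1e) and chr8:93337210-93337459 (Ces1g) and the plus strand at chr8:104733753-104734002 (Ces2a).
Ces1c: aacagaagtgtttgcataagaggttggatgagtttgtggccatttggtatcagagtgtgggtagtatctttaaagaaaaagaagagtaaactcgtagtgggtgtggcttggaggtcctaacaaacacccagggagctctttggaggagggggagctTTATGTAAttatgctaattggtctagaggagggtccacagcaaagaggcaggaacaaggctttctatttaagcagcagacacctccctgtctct
Ces1e: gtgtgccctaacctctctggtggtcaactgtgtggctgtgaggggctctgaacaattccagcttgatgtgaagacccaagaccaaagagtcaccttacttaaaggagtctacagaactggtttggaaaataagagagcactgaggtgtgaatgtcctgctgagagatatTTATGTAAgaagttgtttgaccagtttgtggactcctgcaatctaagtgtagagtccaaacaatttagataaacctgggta
Ces1g: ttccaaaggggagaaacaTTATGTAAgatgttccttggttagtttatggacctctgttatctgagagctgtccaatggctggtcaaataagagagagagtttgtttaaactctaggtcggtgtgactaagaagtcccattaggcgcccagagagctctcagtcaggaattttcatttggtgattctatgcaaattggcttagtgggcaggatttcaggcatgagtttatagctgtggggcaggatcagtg
Ces2a: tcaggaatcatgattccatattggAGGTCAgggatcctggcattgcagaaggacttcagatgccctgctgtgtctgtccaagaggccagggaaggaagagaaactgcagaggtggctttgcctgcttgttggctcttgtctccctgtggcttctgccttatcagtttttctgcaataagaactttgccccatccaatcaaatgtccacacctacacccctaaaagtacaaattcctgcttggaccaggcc

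TTATGTAA stood in all 3 Ces1 windows, beginning 94 bases before the start in Ces1c, 81 in Ces1e and 232 in Ces1g. It was in 0.935% of the 32817 promoter windows of the table and in 0 of the 4 Ces2 and Ces3 windows. Of the 3 further Ces1 genes in the table, which are Ces1a, Ces1b and Ces1h, 2 held it. These letters were chosen after the sequences had been read, and related genes share sequence, so the count is a description only. AGGTCA was found in Ces2a alone among the 7 genes, beginning 226 bases before the start, and in 16.3% of all windows. The direct repeat of AGGTCA with 1 base between the copies (0.0396% of all windows), the antioxidant response core TGACNNNGC (12.4%) and the dioxin response core GCGTG (32.4%) were in 0 of the 7. All motifs were searched on both strands as exact letters, and any match of the repeat would also count as AGGTCA. The absence of letters in a window says nothing of the factor.

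No signal of the 10 probe sets of the listed genes was below the floor of 32 on any array, and each lay between the 92.7th and the 99.8th percentile of its array. After 4 months of smoke, Ces1g was the only reading of 8 that rose past the adjusted threshold against Control, and none fell. Over all 18193 genes read the same way, 7.47% were called in this comparison (3.73% higher). The median difference was 0.09 over the 8 readings and -0.01 over all genes. Among the 1772 genes at least as bright as the dimmest of the 8 readings, 20.1% were called. After recovery, Ces1d was the only reading of 8 that rose past the adjusted threshold against Control, and none fell past it. Of all genes 2.52% were called there (1.37% higher), and of the equally bright ones 8.41%. The median difference over the 8 readings was then 0.23, against 0.00 over all genes. Between recovery and SHS4m, limma called 0 of 8 readings, where 3.68% of all genes and 9.54% of the equally bright ones were called, and 4 of 8 had an unadjusted p under 0.05, beside 18.2% of all genes. That looser threshold was passed by 3 of 8 in SHS4m against Control (22.5% of all genes) and by 4 of 8 in recovery against Control (16.1% of all genes). No reading met the study's rule (unadjusted p under 0.05 and a 2-fold change) in any comparison, which took in 2.81% of genes in SHS4m against Control, 1.21% in recovery against Control and 1.93% in recovery against SHS4m. The comparisons with Control share its 4 arrays, and recovery against SHS4m reuses the arrays of both.

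**Figure D1:**
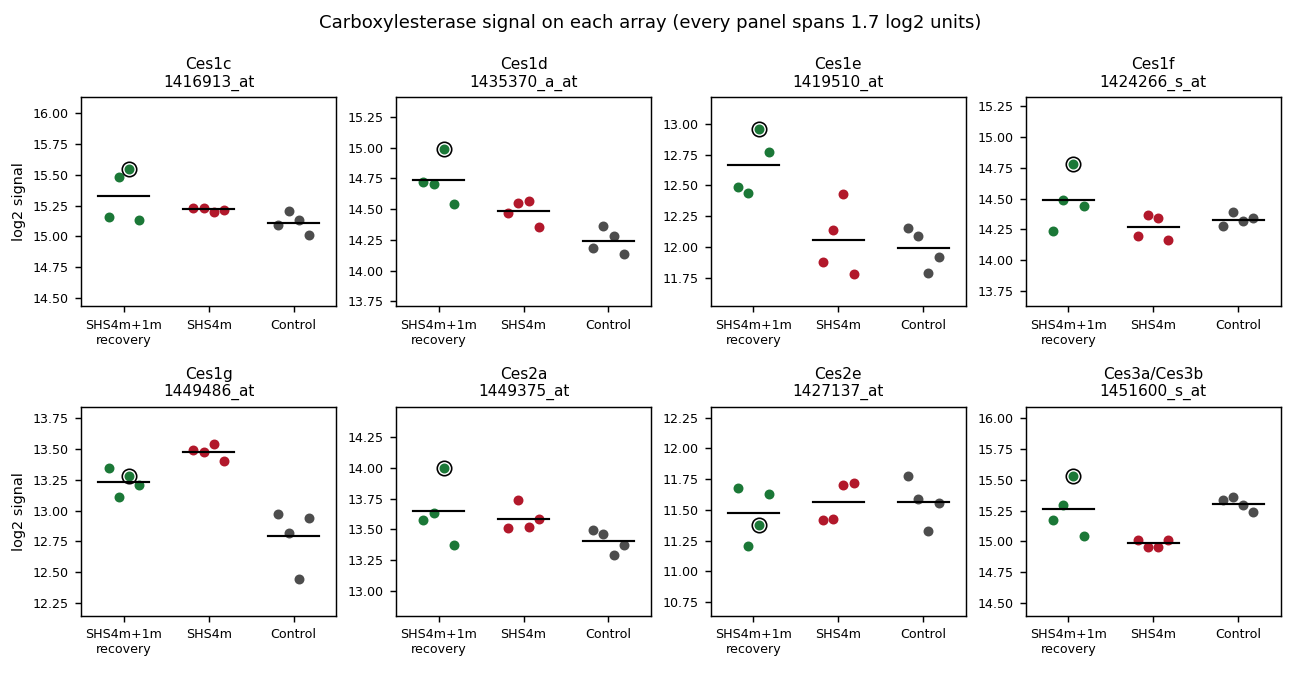
Log2 signal of the 8 carboxylesterase readings on each array, with groups on the horizontal axis, 1 point per array and a line at the group mean (n = 4 each). The ringed point is recovery replicate 72. Ces1g is highest in all 4 SHS4m arrays, and Ces3a/Ces3b is lowest in SHS4m. Ces1c, Ces1d, Ces1e, Ces1f and Ces2a have their highest means in the recovery group.

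Ces1g is a liver and intestinal triacylglycerol hydrolase, and mice that lack it develop fatty liver. Its signal was 10425, 8842, 9945 and 9484 on the recovery arrays, 11519, 11416, 11939 and 10836 on the SHS4m arrays and 8061, 7219, 5584 and 7857 on the Control arrays. The 3 groups did not overlap: every SHS4m array was above every recovery array, and every recovery array above every Control array. The log2 mean was 13.2 ± 0.101 in recovery, 13.5 ± 0.0577 in SHS4m and 12.8 ± 0.242 in Control (SD, n = 4 each). In SHS4m Ces1g was higher than in Control by 0.68 (SE 0.107, adjusted p = 0.00683, limma), which is 1.61-fold. It was called without any single array, with adjusted p between 0.0038 and 0.0222. In recovery it was 0.44 above Control (SE 0.107, 95% interval 0.20 to 0.68), a 1.36-fold difference that missed the threshold (adjusted p = 0.0739, limma). Recovery minus SHS4m was -0.24 (interval -0.48 to -0.0035, adjusted p = 0.354) and was not called.

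Ces1d, the triacylglycerol hydrolase of the endoplasmic reticulum that mobilises stored fat for very low density lipoprotein, is also made in adipose tissue. Its brightest probe set read 27055, 26743, 32493 and 23842 on the recovery arrays, 22664, 23968, 24204 and 20905 on the SHS4m arrays and 18634, 21081, 19882 and 17959 on the Control arrays. All recovery arrays were above all Control arrays, while SHS4m replicate 69 lay inside the Control range. Recovery exceeded Control by 0.50 (SE 0.0924, adjusted p = 0.0289, limma), or 1.41-fold. This call was lost when Control replicate 1, 3 or 4 or recovery replicate 70 or 71 was left out (adjusted p of 0.055 to 0.0757), and it held without recovery replicate 72 (difference 0.42, adjusted p = 0.0431). It was also lost with a floor at the 25th percentile of the array (adjusted p = 0.0879), with log2(signal + 16) and no floor (0.116), with dim probe sets left out (0.0647), in a fit of only the 8 arrays of these groups (0.0972) and with the mean over its probe sets (0.119). SHS4m exceeded Control by 0.24 (interval 0.04 to 0.45, adjusted p = 0.197), and recovery exceeded SHS4m by 0.26 (interval 0.05 to 0.46, adjusted p = 0.224), neither of them called.

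The second brightest probe set of Ces1d was called in both exposed groups. It read 18537.5, 17388, 19145 and 16190.2 on the recovery arrays, 15227.5, 16510, 17357 and 14098 on the SHS4m arrays and 9713, 12691, 11413 and 10706 on the Control arrays. Neither exposed group overlapped Control. The difference from Control was 0.68 in recovery (SE 0.0933, adjusted p = 0.0102) and 0.51 in SHS4m (SE 0.0933, adjusted p = 0.0139), or 1.60-fold and 1.42-fold. Both calls held without any single array, with adjusted p up to 0.0314 in recovery and 0.0427 in SHS4m. With log2(signal + 16) and no floor, the SHS4m call was lost (adjusted p = 0.0603). Recovery minus SHS4m was 0.17 (interval -0.03 to 0.38, adjusted p = 0.473). Counted by probe set, 2 of 10 were thus called in each exposed group against Control, beside 5.4% of all probe sets in SHS4m and 2.07% in recovery, and 0 of 10 between recovery and SHS4m, beside 2.54%.

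The dimmest Ces1d probe set carries the suffix that the manufacturer gives to sets whose probes can bind other transcripts. It spread far more within groups than its partners. It read 5660, 4194, 3869 and 12049 in recovery, 3489, 5647, 19345 and 13592 in SHS4m and 4437, 4193, 3029 and 3770 in Control. SHS4m replicates 68 and 69 and recovery replicate 73 stood at 12049 or above, and the other 9 arrays at 5660 or below. Its differences from Control were 0.60 in recovery (SE 0.544, adjusted p = 0.71) and 1.15 in SHS4m (SE 0.544, adjusted p = 0.319), and recovery minus SHS4m was -0.56 (adjusted p = 0.74). On that probe set replicates 68 and 69 were the highest of SHS4m, whereas replicate 69 was the lowest of SHS4m on both other Ces1d probe sets.

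**Figure D2:**
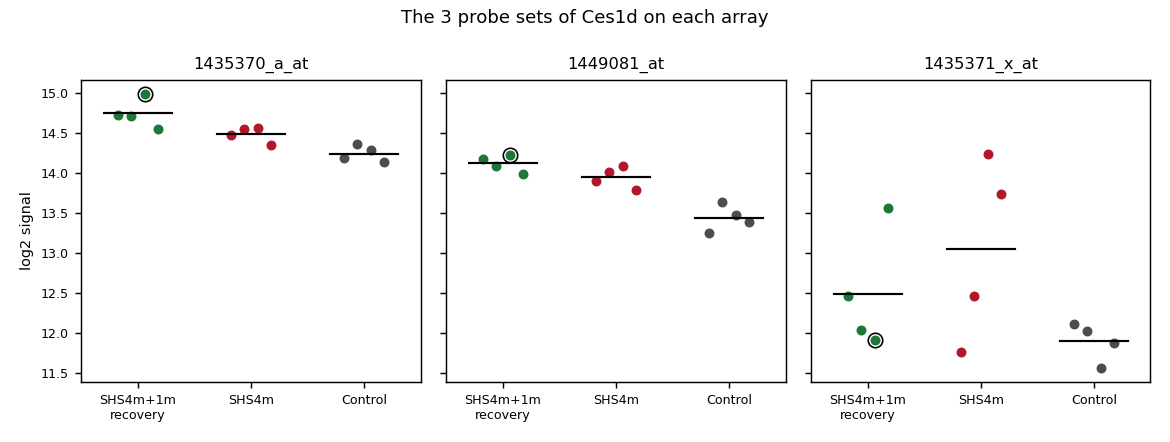
Log2 signal of the 3 Ces1d probe sets on each array, on 1 vertical scale, with 1 point per array, a line at the group mean (n = 4 each) and recovery replicate 72 ringed. From left to right stand the brightest, the second brightest and the dimmest set. The recovery arrays are above the Control arrays in the left and middle panels, and 3 arrays stand apart in the right one.

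Ces1e, also called egasyn, holds beta-glucuronidase in the endoplasmic reticulum. It read 5753, 5565, 7949.5 and 7006 in recovery, 3766, 4518, 5523 and 3509 in SHS4m and 4567, 4367, 3544 and 3869 in Control. All recovery arrays were above all arrays of both other groups, which overlapped each other. The 1.60-fold difference between recovery and Control, 0.68 (SE 0.164, interval 0.31 to 1.04), missed the threshold (adjusted p = 0.0761, limma, and 0.0537 to 0.186 with 1 array left out). Recovery minus SHS4m was 0.61 (interval 0.24 to 0.98, adjusted p = 0.0989), and SHS4m minus Control was 0.07 (interval -0.30 to 0.44, adjusted p = 0.953). The partner gene Gusb, which encodes beta-glucuronidase, differed from Control by -0.06 in recovery (adjusted p = 0.787) and 0.24 in SHS4m (adjusted p = 0.0676), and fell by 0.30 in recovery relative to SHS4m (adjusted p = 0.0465, and 0.0994, not called, with arrays centred on their median).

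Ces3a and Ces3b are close paralogs that liver expresses strongly. Their shared probe set read 37039.5, 40175, 47359 and 33836 in recovery, 33032, 31816, 31829 and 33073 in SHS4m and 41437, 42083, 40142 and 38639.5 in Control. It was the only reading in which every SHS4m array lay below every Control array. SHS4m minus Control was -0.32 (SE 0.0858, interval -0.51 to -0.13), 0.80-fold, with an adjusted p of 0.0635 in limma, so it was not called. With quantile normalisation the difference was -0.24 and passed (adjusted p = 0.00081). It also passed without recovery replicate 72 (adjusted p = 0.0101) or 73 (adjusted p = 0.0316), arrays that enter that comparison only through the shared estimate of spread. Without any other single array it was not called, and over all such fits the adjusted p in limma was 0.0101 to 0.14. Recovery minus Control was -0.05 (interval -0.24 to 0.15, adjusted p = 0.931). Recovery minus SHS4m was 0.28 (interval 0.08 to 0.47, adjusted p = 0.151), with no overlap of the groups. It was not called, but with quantile normalisation this comparison of the shared probe set was called too.

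Ces1c, the main carboxylesterase of mouse plasma, read 35921 to 47932 in recovery, 37631 to 38562 in SHS4m and 33108 to 37764 in Control. Its difference from Control was 0.22 in recovery (interval 0.01 to 0.42, adjusted p = 0.327) and 0.11 in SHS4m (interval -0.09 to 0.31, adjusted p = 0.619). With quantile normalisation these were 0.22 (adjusted p = 0.0345) and 0.19 (adjusted p = 0.0336), both then called. Ces1f, in the same run of Ces1 genes as Ces1d and like it a triacylglycerol hydrolase, read 19256 to 28157.5 in recovery, 18396 to 21095 in SHS4m and 19818.5 to 21437 in Control. It differed from Control by 0.16 in recovery (interval -0.07 to 0.38) and by -0.06 in SHS4m (interval -0.29 to 0.16), and neither passed (adjusted p = 0.598 and 0.856).

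The Ces2 class takes esters with a small acyl group and a large alcohol, as human CES2 does. Ces2a read 10606 to 16373 in recovery, 11678 to 13659 in SHS4m and 10047 to 11541 in Control. All 4 SHS4m arrays were above the Control arrays, yet the difference was 0.18 (interval -0.08 to 0.44, adjusted p = 0.513), and that of recovery was 0.24 (interval -0.02 to 0.50, adjusted p = 0.429). Ces2e, which splits pyrethroid insecticides, read 2362 to 3279 in recovery, 2735 to 3380 in SHS4m and 2575 to 3498 in Control. It differed from Control by -0.09 in recovery (interval -0.39 to 0.20, adjusted p = 0.865) and by 0.00 in SHS4m (interval -0.29 to 0.30). The ranges of all 3 groups overlapped.

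**Figure D3:**
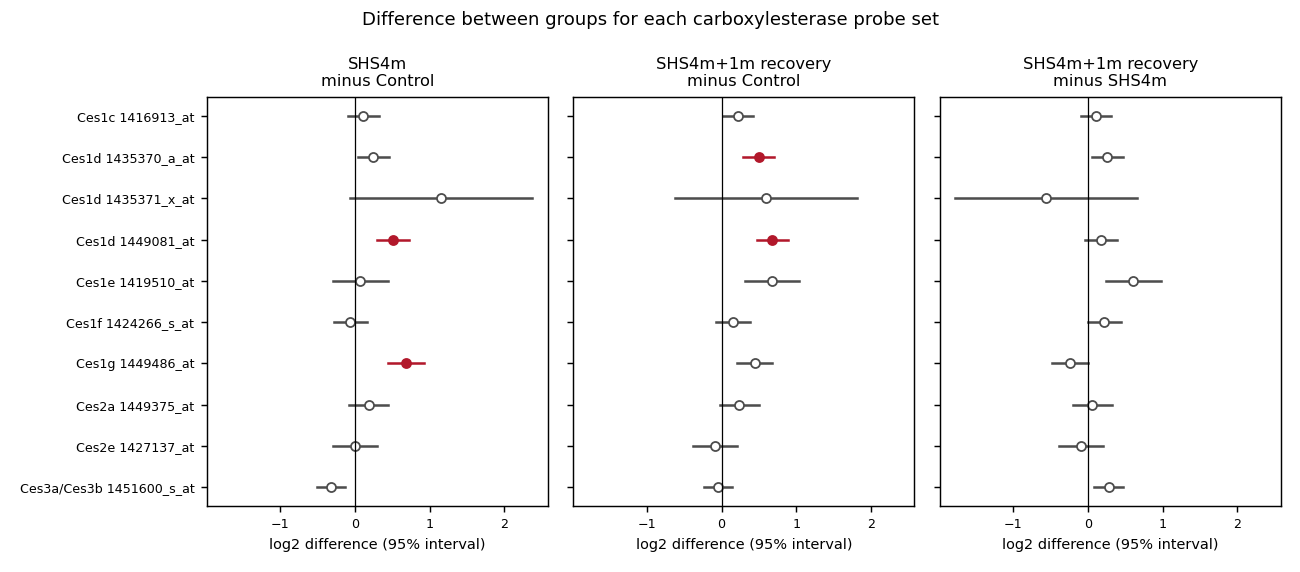
Log2 difference with its 95% interval for each of the 10 carboxylesterase probe sets in the 3 comparisons, on 1 horizontal scale. Filled red points passed an adjusted p of 0.05 in limma: Ces1g and the second brightest Ces1d set in SHS4m against Control, and the brightest and second brightest Ces1d sets in recovery against Control.

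The readings ordered the groups differently. In SHS4m against Control, 3 of 8 readings did not overlap (Ces1g and Ces2a above, Ces3a/Ces3b below), where 16.1% of all genes did not. In recovery against Control it was also 3 of 8 (Ces1d, Ces1e and Ces1g, all above), beside 10.1% of all genes, and in recovery against SHS4m 3 of 8 (Ces1e and Ces3a/Ces3b above, Ces1g below), beside 11.9%. Over the 12 arrays, with each reading centred on its own mean, the closest pair was Ces1c and Ces2a (root mean square distance 0.106 in log2 units), followed by Ces1c and Ces1f (0.118). The furthest was Ces1g and Ces3a/Ces3b (0.445). By the same measure over all named genes, Ces1g (SD 0.327) was nearest to Hbs1l (0.108), Cyp2d22 (0.113) and Fuca1 (0.121). Ces1d (SD 0.245) was nearest to Palmd (0.0769), Pdia5 (0.085) and Aup1 (0.0905). These distances over 12 arrays are descriptions with no test.

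Of the other carboxylesterase genes, 6 of 10 listed had a probe set, and limma called 0 of 6 in every comparison. At an unadjusted p under 0.05, 3 of 6 passed in SHS4m against Control, beside 22.5% of all genes, and 0 in both others (16.1% of all genes in recovery against Control and 18.2% in recovery against SHS4m). Ces2b read 162 to 244 in recovery, 117 to 176 in SHS4m and 1229, 284, 200.2 and 257 in Control. Its SHS4m difference was -1.39 (interval -2.48 to -0.30, adjusted p = 0.156), which met the study's rule, and Control replicate 1 stood far above the rest. Without that array, an alternative chosen after seeing the data, the difference was -0.81 (adjusted p = 0.04998, just inside the threshold) and did not meet the study's rule. Ces2g differed by 0.28 (adjusted p = 0.242) and Ces4a by -0.999 (adjusted p = 0.206). The median of the 6 was -0.30 in SHS4m and -0.41 in recovery against Control.

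Other hydrolases of liver lipids, esters and epoxides moved in both directions. In SHS4m against Control, 3 of 20 rose and 1 fell, with a median of -0.0018. Over all genes 7.47% were called in this comparison, and 20.1% of those at least as bright as the dimmest carboxylesterase reading. Pnpla2, the adipose triglyceride lipase, rose by 0.90 (adjusted p = 0.00428), Ephx1, the microsomal epoxide hydrolase, by 0.79 (adjusted p = 0.00129) and Abhd6, a monoacylglycerol lipase, by 0.78 (adjusted p = 0.0174, with 0.50 and adjusted p = 0.305 on its other probe set). Abhd5, the coactivator of Pnpla2, fell by 0.56 on 1 probe set (adjusted p = 0.0112) and differed by 0.10 on another (adjusted p = 0.67). In recovery against Control 1 of 20 was called, beside 2.52% of all genes, with a median of 0.15. It was Abhd5 at -0.61 (adjusted p = 0.017, and -0.12 with adjusted p = 0.675 on the other probe set). In recovery against SHS4m Ephx1 fell by 0.51 (adjusted p = 0.0172) and Abhd2 by 0.47 (adjusted p = 0.0342), and 0 of 20 rose, beside 3.68% of all genes called. With arrays centred on their median, the calls of Abhd5 in recovery against Control (adjusted p = 0.06) and of Ephx1 (0.0585) and Abhd2 (0.0969) in recovery against SHS4m were lost. Of the 24 dimmer probe sets of these hydrolases 0 rose and 1 fell in SHS4m against Control and 0 rose and 2 fell in recovery against Control, and 0 were called in recovery against SHS4m. Over all probe sets, 5.4%, 2.07% and 2.54% were called in these comparisons, in that order. A dimmer set of Lipa, the lysosomal acid lipase, fell by 0.54 in recovery (adjusted p = 0.0167) and by 0.42 in SHS4m (adjusted p = 0.0224), against 0.16 (adjusted p = 0.461) and -0.08 (adjusted p = 0.696) on its brightest set.

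Carboxylesterase genes are known targets of xenobiotic and lipid-sensing nuclear receptors, and 13 of 15 listed regulators had a probe set. In SHS4m against Control 4 rose and 1 fell, with a median of 0.23. Over all genes 7.47% were called in this comparison, and 20.1% of those at least as bright as the dimmest carboxylesterase reading. Rxra, the shared partner of these receptors, rose by 0.38 (adjusted p = 0.0018), Nr1i2, the pregnane X receptor, by 0.60 (adjusted p = 0.00254) and Ahr, the aryl hydrocarbon receptor, by 0.81 (adjusted p = 0.028). Nr0b2, the repressor SHP, fell by 1.53 (adjusted p = 0.0122). In recovery against Control 3 rose and 0 fell (median 0.30), beside 2.52% of all genes called. These were Rxra, higher by 0.24 (adjusted p = 0.0305), Nr1i2 by 0.38 (adjusted p = 0.0349) and Nr1h4, the bile acid receptor FXR, by 0.64 (adjusted p = 0.0356). In recovery against SHS4m only Cebpa was called, higher by 0.80 (adjusted p = 0.0114), beside 3.68% of all genes called. The median of the regulators was 0.24. A second Nr1i2 probe set was also called in both comparisons with Control (0.46 in recovery and 0.59 in SHS4m), and a second Rxra probe set in neither (adjusted p = 0.541 in recovery and 0.401 in SHS4m). Of the 16 dimmer probe sets of the regulators 3 rose in SHS4m (5.4% of all probe sets were called) and 2 in recovery (2.07%) against Control, and 0 fell. Besides Nr1i2, these were Hnf4a (0.72, adjusted p = 0.00899) and Nfe2l2 (1.44, adjusted p = 0.0225) in SHS4m and Ppara (0.65, adjusted p = 0.0262) in recovery, named after their values were seen. The brightest Nfe2l2 set had the other sign in SHS4m (-0.66, adjusted p = 0.141). With arrays centred on their median, the recovery calls of Rxra (adjusted p = 0.192) and Nr1i2 (adjusted p = 0.0606) were lost.

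**Figure D4:**
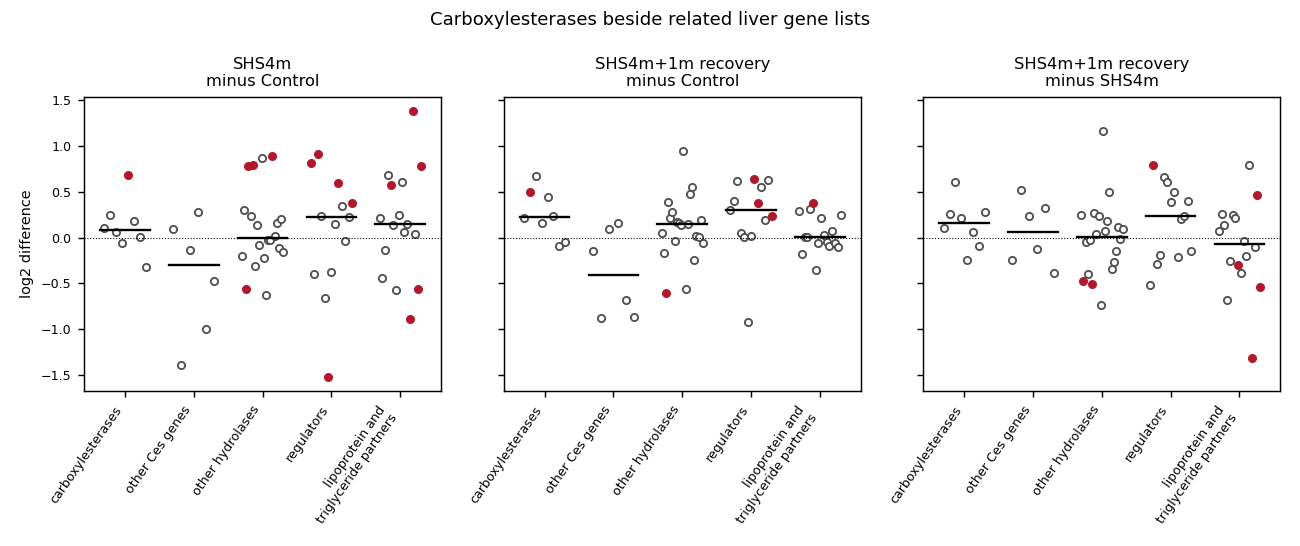
Log2 difference of each gene in the carboxylesterase readings and 4 related gene lists, in the 3 comparisons, with 1 point per gene and a line at the list's median. Filled red points passed an adjusted p of 0.05 in limma, 1 of 8 carboxylesterase readings and 5 of 13 regulators in SHS4m against Control among them. Over all genes 7.47% passed in that comparison.

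Some carboxylesterases are also made outside hepatocytes, Ces1d and Ces1f in fat and members of both classes in intestine and kidney, so markers of those cells were read beside them. Over all genes, 7.47% were called in SHS4m against Control, 2.52% in recovery against Control and 3.68% in recovery against SHS4m. Of 6 adipocyte markers, Fabp4 rose by 1.10 in SHS4m (adjusted p = 0.0169) and Car3 fell by 0.37 (adjusted p = 0.0352, and 0.516 after quantile normalisation), and 0 of 6 were called in recovery against Control. In recovery against SHS4m Fabp4 fell by 1.67 (adjusted p = 0.00524) and no other of the 6 was called. Their summed signal, mostly Car3, was 58805 to 80269 in recovery, 59676 to 61653 in SHS4m and 70282 to 80499 in Control. The fat-defining Lep was below the floor on all 12 arrays and Adipoq read 6.97 to 49.9, near or below the floor of 32. Retn was below it on 7 arrays and Cidea on 4. Of 6 intestine markers only Fabp2 was called in SHS4m (-0.74, adjusted p = 0.00935) and 0 in recovery against Control, with sums of 9586 to 12308 in recovery, 6823 to 7646 in SHS4m and 9651 to 13919 in Control. Most of that sum was Fabp2 itself, which read 6313 to 13546 and was 0.60 higher in recovery than in SHS4m (adjusted p = 0.0377), the only intestine marker called there. Vil1 was below the floor on 10 of the 12 arrays, Cdx2 on 6 and Muc2 on 5, and Lgals4 and Alpi read at most 374 and 179. The sum thus follows Fabp2 and does not read the intestine markers as a set. Kidney (6), endothelial (6) and stellate and cholangiocyte (9) markers had 0 called by limma in every comparison, with at most 2 passing an unadjusted p under 0.05 in any of them. Of 9 macrophage and leukocyte markers 1 rose and 3 fell in SHS4m against Control and 0 were called in recovery against Control. Marco was the one that rose in SHS4m (1.90, adjusted p = 0.0137). Those that fell were Lyz2 (-0.76, adjusted p = 0.0099), Ptprc (-0.73, adjusted p = 0.0166) and Clec4f (-0.51, adjusted p = 0.0173). In recovery against SHS4m 2 rose, Clec4f by 0.46 (adjusted p = 0.0442) and Ptprc by 0.64 (adjusted p = 0.0466). With arrays centred on their median, the calls of Fabp2 (0.0916), Clec4f (0.0669) and Ptprc (0.0798) in recovery against SHS4m were lost. So was that of Clec4f in SHS4m against Control (0.0515). The sums of these markers were 5876 to 8389 in recovery, 5223 to 6775 in SHS4m and 7208 to 9369 in Control. The part of these cells in the carboxylesterase differences was not tested.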

How the data were processed

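Liver RNA of 12 arrays was analysed, 4 per group. The authors' deposited values are signal intensity per probe set on a linear scale, made in Affymetrix Expression Console (version and summarisation algorithm not given in the sources used here), with each array's mean, after trimming 2% at each end, at 500. No columns of the authors' own comparisons were used. The 64 array controls were left out of 45101 probe sets. Signals under 32 were raised to 32 and log2 was taken, so changes near this floor are understated. limma 3.58.1 (R 4.3.3) fitted 1 model of the 3 groups to 45037 probe sets (lmFit, eBayes), with Benjamini-Hochberg adjustment over all of them. It was tested on simulated data. Of these, 34945 probe sets name 1 gene in the platform annotation, 932 several and 9160 none. A gene was read by its brightest probe set naming it alone. Members called in any comparison are given on every array. Other lists name at most 4 called genes per comparison, by smallest adjusted p. The members, lists and alternatives were chosen with earlier results of these data known. Promoter windows came from RefSeq (GRCm38.p6) and were aligned with Biopython. The alternatives were other scalings, floors, filters, array subsets, probe-set rules and eBayes settings. The number of arrays limits precision.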

Additional observations from a re-analysis of the deposited data

Results flagged for a closer look

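Gaps between arrays were taken on log2 signal. In 44 sets of 4 arrays above the floor of 32 (1 probe set of a carboxylesterase gene in 1 group), 2 held an array whose gap to its nearest neighbour, as a share of the log2 range, passed Dixon's critical value, where chance gives about 1 in 20. None was a listed member. Ces1h read 116 on recovery replicate 70, against 192 to 205 on the other recovery arrays (share 0.888). On 1 of the 3 Ces5a probe sets the signal was 176 on Control replicate 3, against 485 to 517 on the other Control arrays (share 0.940).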

How the results depend on the processing

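The count of carboxylesterase readings called in SHS4m against Control (1 of 8) was 3 with quantile normalisation, 2 in a fit of only the 8 arrays of those groups, 0 at the study's threshold, and 1 to 2 with 1 array left out. In recovery against Control (1 of 8) it was 2 with quantile normalisation and 0 with a floor at the 25th percentile, with log2(signal + 16) and no floor, with dim probe sets left out, with only 8 arrays, at the study's threshold and with the mean over a gene's probe sets, and 0 to 1 with 1 array left out. In recovery against SHS4m (0 of 8) it was 1 with quantile normalisation (Ces3a/Ces3b) and 0 to 0 with 1 array left out. Of 625 differences recomputed, 596 kept direction and call, 11 lost and 8 gained the call, and 10 changed sign, none of these called. Among these, with 1 array left out, SHS4m minus Control ranged from -0.0749 to 0.0724 for Ces2e and from -0.0572 to 0.161 for Ces1e, recovery minus Control from -0.135 to 0.0265 for Ces3a/Ces3b, and recovery minus SHS4m from -0.0598 to 0.149 for Ces2a. Ces2e in SHS4m was -0.0057 with quantile normalisation. With arrays centred on their median, Ces1f in SHS4m was 0.0153 and Ces3a/Ces3b in recovery 0.0338, both against Control. Recovery minus SHS4m for Ces1d was -0.0416 with the mean over its probe sets. The causes were not tested. Of 39 calls among the listed genes, 0 changed sign, 4 were lost with quantile normalisation and 14 with centring, which moved the median of all genes by 0.08 in both comparisons with Control. No paired analysis was possible because the groups share no replicate numbers.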

Other observations

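Genes that work beside the carboxylesterases in triglyceride storage and lipoprotein assembly (16 of 16 with a probe set) were called in both directions in SHS4m against Control. There were 3 higher and 2 lower, with a median of 0.14, beside 7.47% of all genes called. Plin5, a lipid droplet coat protein of oxidative cells, rose by 1.39 (adjusted p = 0.0036), Tm6sf2, which takes part in loading lipid onto lipoproteins, by 0.78 (adjusted p = 0.00459) and Dgat1, which makes triacylglycerol, by 0.57 (adjusted p = 0.00211). Sec24c, a coat protein of vesicles leaving the endoplasmic reticulum, fell by 0.56 (adjusted p = 0.0133). In recovery against Control only Dgat2 was called, higher by 0.38 (adjusted p = 0.0349), with a median of 0.01, beside 2.52% of all genes called. In recovery against SHS4m Plin5 fell by 1.31 (adjusted p = 0.00849), Tm6sf2 by 0.54 (adjusted p = 0.0392) and Gusb by 0.30 (adjusted p = 0.0465), and Sec24c rose by 0.46 (adjusted p = 0.048). The median was -0.07, and 3.68% of all genes were called. With arrays centred on their median, the calls of Dgat2 in recovery (adjusted p = 0.0873), Sec24c in SHS4m (0.0592), and Sec24c (0.107) and Gusb (0.0994) in recovery against SHS4m were lost.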
